A study of Mus musculus with 12 samples.

Results

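Of the 12 libraries examined here, 6 come from 3 pairs of mouse pancreatic cancer cultures in which the Rosa26 transcript, Gt(ROSA)26Sor (Entrez 14910), was more than 4 times as high after Cre recombinase as before it. The 12 libraries form 6 pairs, and the pairs were selected on that measured ratio: lines 52205, 53369 and 53371 lie above it (the high-ratio lines below), and lines 52419, 52424 and 53105 do not (the other lines). The sets are therefore defined by a measured value and not by the study's labels. The question is which genes differed in their Cre change between the 3 and the 3 pairs, and which changed alike in both.

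The libraries are poly(A)-selected RNA-seq of cultured pancreatic ductal adenocarcinoma cells, with 1 parental library (labelled as wild type) and 1 Cre library (labelled as JAK1 knockout) per line. The Cre cultures were made from the parental ones by infection with pBabe-Cre-puro, a retrovirus that carries Cre and a puromycin resistance gene, followed by puromycin at 2, 4 and 7 µg/ml; the labels name no agent for the parental cultures. All Cre libraries therefore share viral infection, drug selection and Cre together, and no empty-vector culture was analysed here. The labels do not say whether a Cre culture is 1 clone or a pool, name no strain or age, and name no allele at Rosa26. With 1 library per line and condition, the spread measured is that between lines, and there is no replicate of any single culture.

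Gt(ROSA)26Sor is a long non-coding RNA made from a promoter that is active in most mouse tissues. Its first intron is the usual site for placing transgenes, among them reporters that Cre switches on by removing a stop cassette. JAK1, the kinase that Cre was meant to remove here, sits on receptors for interferons and for cytokines of the interleukin-6 family and passes their signal to STAT transcription factors. Cells use that route to switch on interferon-stimulated genes and acute-phase genes.

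Values below are normalised read counts per 1000000 reads (CPM), and the Cre change of a line is the log2 of (Cre value + 0.5) minus that of its parental value, a scale that understates the change of low genes. In the high-ratio lines, Gt(ROSA)26Sor went from 3.15 to 25.5 CPM in 52205, from 3.37 to 111 CPM in 53369 and from 2.84 to 88.2 CPM in 53371. These values rest on 42 and 285 reads, 44 and 1553 reads, and 36 and 1044 reads. In the other lines it went from 9.96 to 8.53 CPM in 52419, from 4.74 to 4.80 CPM in 52424 and from 6.77 to 5.46 CPM in 53105, on 55 to 134 reads. Every Cre library of the high-ratio lines thus lies above every other library, and their 3 parental libraries lie below the 3 parental libraries of the other lines. These values chose the sets and are given as a description without a test. The ratios nearest to the threshold of 4 were 8.10 in 52205, above it, and 1.01 in 52424, below it, so no ratio lay close to it. The remaining ratios were 33.0 in 53369, 31.1 in 53371, 0.856 in 52419 and 0.807 in 53105.

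**Figure D1:**
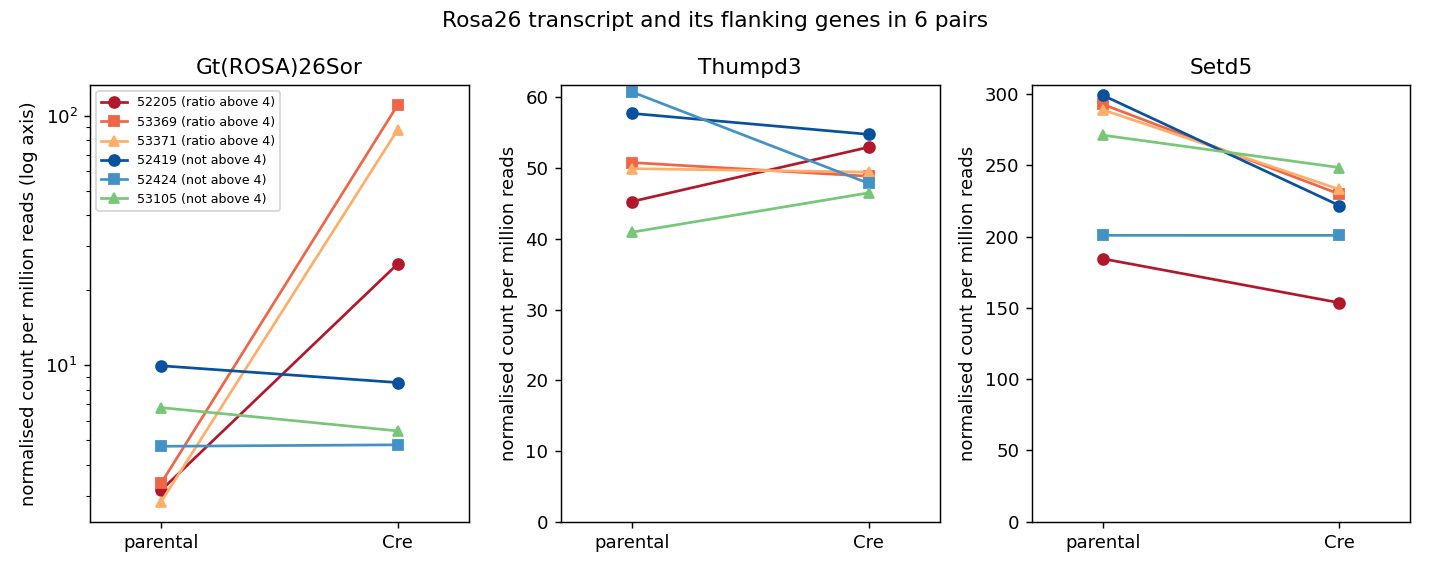
Normalised count (CPM) of Gt(ROSA)26Sor (log axis) and of its flanking genes Thumpd3 and Setd5 (linear axes from 0) in the parental and the Cre library of each line; each line joins 1 pair. Gt(ROSA)26Sor reaches 25.5 to 111 CPM in the Cre libraries of the 3 high-ratio lines and 4.80 to 8.53 CPM in those of the other lines, whereas the flanking genes show no such split.

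The gene lies on chromosome 6 at 113067428 to 113077244, minus strand, on GRCm38 in RefSeq, between 2 genes of the plus strand. Thumpd3 (113046302 to 113068278), which encodes a protein with a THUMP RNA-binding domain, overlaps its end, and the libraries name no strand-marking step, so reads in the overlap cannot be assigned by strand. In the GENCODE annotation 145 of the 1695 exon bases of Gt(ROSA)26Sor are shared with exons of Thumpd3. Thumpd3 was at 45.3 and 53 CPM (parental and Cre) in 52205, 50.8 and 48.9 in 53369, 49.9 and 49.4 in 53371, 57.8 and 54.8 in 52419, 60.8 and 47.9 in 52424, and 40.9 and 46.5 in 53105. The line changes of the sets overlap, with means of 0.05 in the high-ratio lines and -0.08 in the others on the log2 scale. Setd5 (113077262 to 113153432), a gene for a SET-domain protein that starts 0.018 kb from Gt(ROSA)26Sor and shares no exon base with it, had means of -0.31 and -0.19. Its parental and Cre values were 185 and 154 CPM in 52205, 293 and 230 in 53369, 289 and 233 in 53371, 299 and 222 in 52419, 201 and 201 in 52424, and 271 and 249 in 53105. Both sets contain lines with a lower Cre value, and their ranges overlap. Because these 3 genes define the locus, they stayed in the fit and are given without a test.

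In the 1 Mb on either side, no tested gene outside the locus split the sets. The table holds there 33 genes, of which 26 passed the filter on low values, 23 of them outside the locus itself. Their median difference in Cre change (high-ratio minus other lines) was -0.04 on the log2 scale, against -0.01 over all genes. It ran from -0.35 for Cidec, a lipid-droplet protein gene, to 0.47 for Fancd2, a DNA-repair gene of the Fanconi anaemia pathway. None of the 23 had an unadjusted p under 0.05, and for none were the line changes of the sets without overlap. Over all genes tested these shares were 1.89% and 5.91%. For 23 genes a count of 0 is near both shares and sets the neighbourhood apart in no way.

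Across the transcriptome, no gene outside the locus was called as responding differently to Cre in the sets. Of 12731 genes tested without the 3 locus genes, 0 passed an adjusted p of 0.05 for the difference (0%; limma-trend with a term per cell line, Benjamini-Hochberg adjustment), and edgeR and DESeq2 on the recovered reads also called 0. A p under 0.05 before adjustment is reached by chance in a share of about 0.05 of genes where none differs. It was reached by fewer, 240 genes (1.89%), 102 with a higher change in the high-ratio lines (0.801%) and 138 with a lower one (1.08%). The edgeR test gave 280 in all and DESeq2 214. Without line 52419 that count was 494, and without 53369 it was 386. The line changes of both sets were without overlap for 752 genes (5.91%), also fewer than the share of 0.1 that a random split of 3 against 3 lines gives. The 95% interval of a difference reached a median of 0.55 to either side. That width is for 1 gene without adjustment, so differences well above it could also go uncalled. The interval lay within 1 log2 unit of 0 for 9357 genes (73.5%).

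Neither set on its own gave a call. In the high-ratio lines 0 genes passed the adjusted threshold for a Cre change (0%), although 593 higher (4.66%) and 615 lower ones (4.83%) had p under 0.05 before adjustment. In the other lines 0 passed (0%), with 270 higher (2.12%) and 406 lower (3.19%). DESeq2 called 34 and 27 genes for these tests, and edgeR called 0 for each. Across genes, which are not independent replicates, the mean changes of the sets had a Pearson correlation of 0.50 and 65.9% of genes had the same sign in both.

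**Figure D2:**
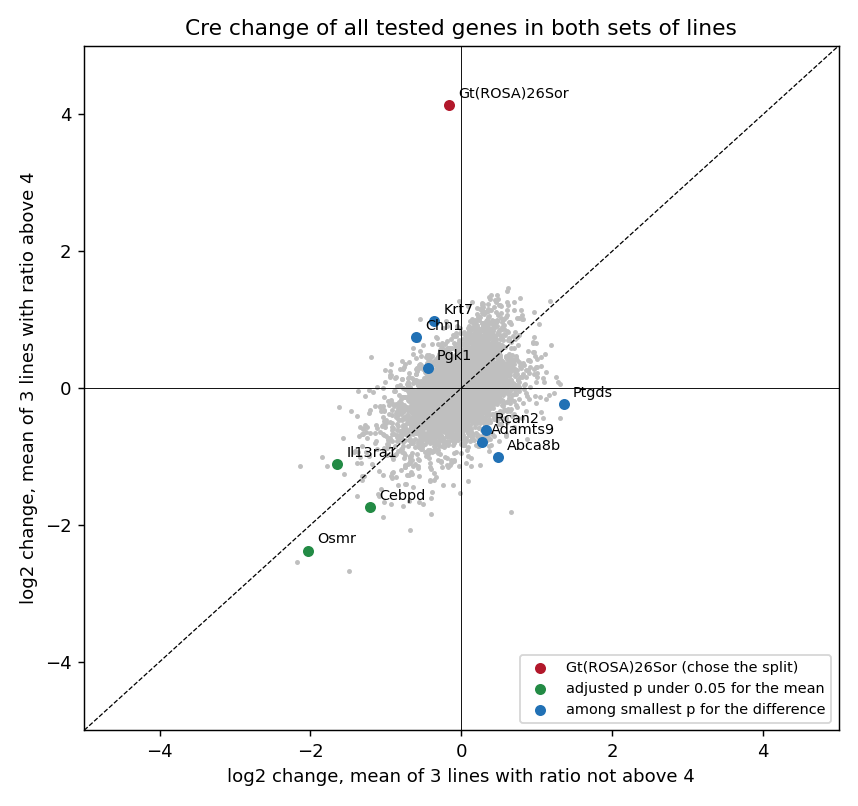
Mean log2 Cre change of each tested gene in the 3 other lines (horizontal) against the 3 high-ratio lines (vertical), grey points; the dashed line marks equal change. Gt(ROSA)26Sor, which chose the sets, stands alone at the top, Osmr, Il13ra1 and Cebpd lie low in both sets, and genes with the smallest p for the difference lie off the dashed line.

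Lines of 1 set did not have more similar Cre changes than lines of different sets. As a description across genes, the correlation of line changes ranged from 0.025 to 0.291 within a set (6 pairs of lines, median 0.099) and from 0.029 to 0.388 between sets (9 pairs of lines, median 0.193). The highest values, 0.388 for 52424 with 53371 and 0.384 for 52419 with 53369, join lines of different sets. The share of genes that moved by more than 1 log2 unit was 4.66% in 52205, 1.56% in 53369 and 7.34% in 53371, against 2.92% in 52419, 6.26% in 52424 and 2.46% in 53105. Large and small responses occur in both sets.

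The 10 genes with the smallest p for a higher Cre change in the high-ratio lines include Chn1, Gpc1, Pgk1, Krt7, Pvt1, Malat1, Gm4610, Mir703 and Map6. All 10 had line changes without overlap, which a choice by p favours, and none passed the adjustment (limma, adjusted p = 0.999 for each). Chn1, which encodes the Rac-inactivating protein chimaerin 1, was at 7.21 and 16.3 CPM (parental and Cre) in 52205, 0.382 and 0.643 in 53369, and 4.65 and 8.11 in 53371. In the other lines it was at 26.1 and 13.8 CPM in 52419, 4.22 and 3.13 in 52424, and 1.82 and 1.13 in 53105. The Cre value was thus above the parental one in the 3 high-ratio lines and below it in the 3 others, with a difference of 1.34 (SE 0.33) on the log2 scale. In 53369 both values were below 1 CPM, so the direction there rests on few reads.

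Krt7, a keratin of ductal epithelium, had the same difference, 1.34 (SE 0.34), on very unequal levels. Its changes were 1.05 in 52205, 1.49 in 53369 and 0.41 in 53371, against -0.20 in 52419, -1.01 in 52424 and 0.14 in 53105. In 53369 it was at 1.38 and 4.79 CPM and in 52419 at 1.49 and 1.23 CPM, while the other 4 lines had at least 462 CPM. Gpc1, the gene of the cell-surface proteoglycan glypican 1, gave closely spaced values, with changes of 0.29, 0.18 and 0.22 in 52205, 53369 and 53371 and of -0.43, -0.31 and -0.31 in 52419, 52424 and 53105. Its difference was 0.58 (SE 0.14). Among non-coding genes, the nuclear RNA Malat1 differed by 0.86 and Pvt1, the neighbour of Myc, by 0.90. Mir703 is counted here from poly(A) RNA across its gene, which is no measure of a mature microRNA.

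The 10 genes with the smallest p for a lower change in the high-ratio lines were Rcan2, Adamts9, Ptgds, Irs2, Abca8b, Setbp1, Cacna1a, Cmtm3, Tnfrsf21 and Gsta4, again all without overlap and all with a limma adjusted p of 0.999. Rcan2, which encodes an inhibitor of the phosphatase calcineurin, was at 8.94 and 6.27 CPM in 52205, 31.0 and 20.2 in 53369, and 13.9 and 7.95 in 53371. In the other lines it was at 10.2 and 12.4 CPM in 52419, 26.2 and 34.5 in 52424, and 13.4 and 16.7 in 53105. The Cre value was lower in the 3 high-ratio lines and higher in the 3 others, and the difference was -0.94 (SE 0.21).

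Ptgds, the gene of a prostaglandin D2 synthase, showed the largest difference of the 10, -1.59 (SE 0.37), at low levels. It was at 4.13 and 4.03 CPM in 52205, 0.306 and 0.214 in 53369, and 5.43 and 3.72 in 53371, against 1.34 and 2.69 in 52419, 1.29 and 4.65 in 52424, and 5.12 and 18.6 in 53105. The difference lies mainly in the other lines, whose mean change was 1.36, while the high-ratio lines had a mean of -0.23. Adamts9, a secreted metalloprotease gene, was lower after Cre in the 3 high-ratio lines (-1.14 in 52205, -0.82 in 53369, -0.39 in 53371) and stood at 0.35, 0.44 and 0.05 in 52419, 52424 and 53105. Irs2, an adaptor of insulin and IGF receptors, had a mean of -0.19 in the high-ratio lines and 0.70 in the others. Gsta4, a glutathione transferase gene, had means of 0.01 and 0.76. Irs2, Cacna1a and Cmtm3 lie on chromosome 8, whose median difference between the sets was -0.11. The part of that shift in their values was not tested.

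**Figure D3:**
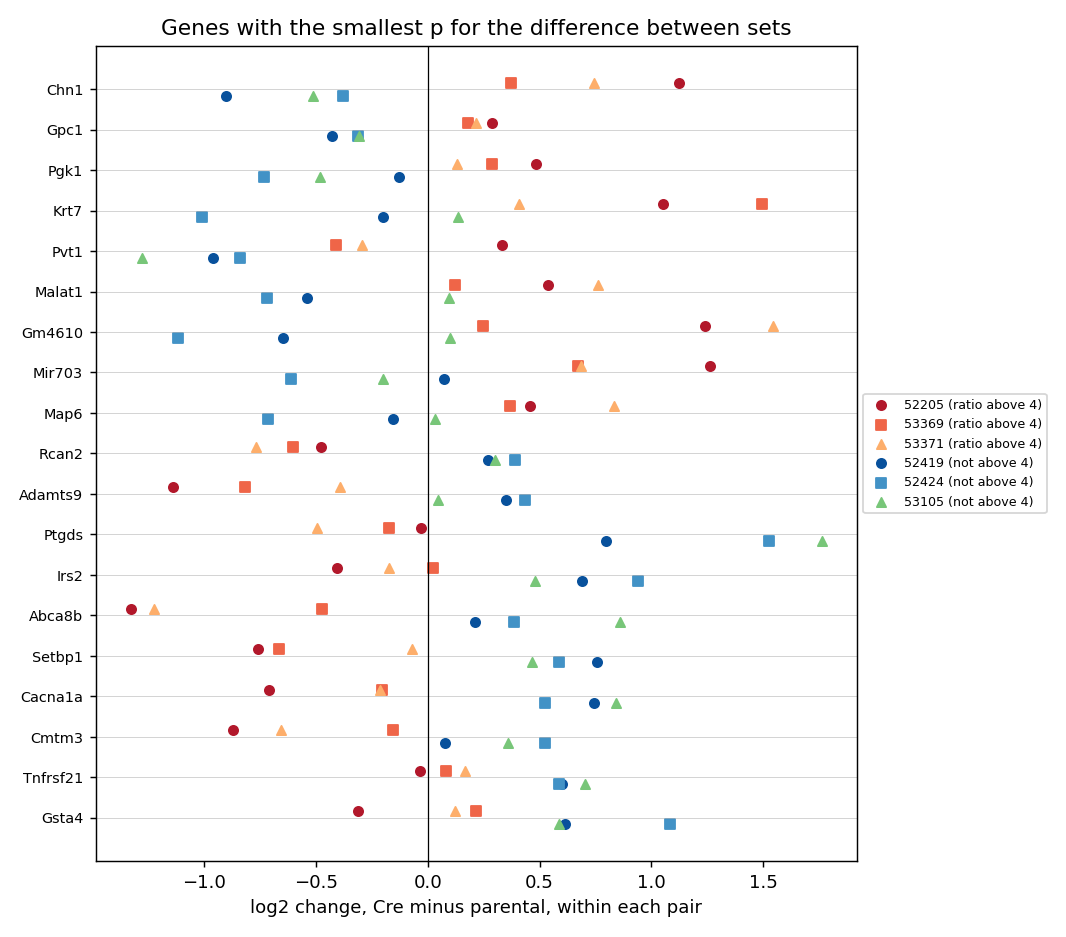
Log2 Cre change in each of the 6 lines for genes with the smallest p for the difference between the sets in each direction; each point is 1 line, warm colours the high-ratio lines and cool colours the others. In each gene shown the points of the sets are apart, as the choice by p favours, and none passed the adjusted threshold.

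For 3 genes the test was passed for the mean Cre change of both sets (0.0236% of genes tested), all of them lower in 6 of 6 lines: Osmr, Il13ra1 and Cebpd. Osmr encodes the receptor chain for oncostatin M and Il13ra1 a receptor chain for interleukins 4 and 13, both of which signal through JAK1. Cebpd is a transcription factor gene known as a STAT3 target. Osmr went from 5.11 to 0.269 CPM in 52205 (3 reads in the Cre library), from 15.1 to 2.14 in 53369 and from 10.5 to 2.87 in 53371. In the other lines it went from 7.36 to 1.15 CPM in 52419, from 14.3 to 2.11 in 52424 and from 9.27 to 3.32 in 53105. The line changes of the sets overlap, with means of -2.38 and -2.04, and the mean over both was -2.21 (SE 0.22, limma adjusted p = 0.0263).

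Il13ra1 went from 15.2 to 7.08 CPM in 52205, from 36.7 to 13.1 in 53369, from 22.2 to 12.4 in 53371, from 10.6 to 2.38 in 52419, from 49.0 to 18.9 in 52424 and from 32.2 to 10.1 in 53105. Its means were -1.11 in the high-ratio lines and -1.64 in the others (overall -1.38, SE 0.13, limma adjusted p = 0.0263), and the 95% interval of the difference was -0.07 to 1.14. Cebpd went from 31.0 to 5.56 CPM in 52205, from 25.2 to 10.3 in 53369, from 47.9 to 15.6 in 53371, from 44.6 to 17.8 in 52419, from 28.6 to 14.5 in 52424 and from 42.7 to 16.1 in 53105. Its means were -1.74 and -1.21 (overall -1.48, SE 0.15, limma adjusted p = 0.0269), with an interval of the difference of -1.23 to 0.16. For Osmr the interval was -1.32 to 0.64. None of the 3 intervals lies within 1 log2 unit of 0, so these genes were not counted as alike. With 1 line left out the mean changes stayed between -2.38 and -2.08 for Osmr, -1.45 and -1.29 for Il13ra1, and -1.60 and -1.32 for Cebpd, while the calls varied. None of the 3 was called without 52419, 52424, 53105 or 53369; without 52205 Cebpd was called, and without 53371 Osmr and Il13ra1. The Osmr call also ended with a pseudocount of 0.1 and with the deposited log2 table, where the other two were called. For all genes, edgeR called 0 where DESeq2 called 170. Il13ra1 lies on chromosome X, whose median change was -0.26 in 53105, and Cebpd on chromosome 16, with -0.30 in 52205.

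Genes were counted as alike where the mean change passed and the interval of the difference lay within 1 log2 unit. With the adjusted threshold 0 genes met both conditions (0%). With an unadjusted p under 0.05 for the mean and the same direction in 6 of 6 lines, 574 genes did (4.51%). For the mean change alone, p before adjustment was under 0.05 for 799 genes with a higher value (6.28%) and 913 with a lower one (7.17%), while 580 genes were lower in 6 of 6 lines (4.56%) and 523 higher (4.11%).

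The 10 lower genes with the smallest p among those whose interval lay within 1 included Lepr, Ier3, Pdgfra, Aig1, Hivep2, Mgat4a, Rab7b, Adgra2 and Aspa, and none of the 10 passed the limma adjustment in the reported fit. Limma with library weights called Lepr, Ier3, Pdgfra and Aig1, and DESeq2 called the 9 genes named here. Ier3, an immediate-early gene, was at 289 and 220 CPM in 52205, 63.6 and 48.1 in 53369, 527 and 349 in 53371, 208 and 103 in 52419, 293 and 152 in 52424, and 123 and 85.1 in 53105. The Cre value was the lower one in all 6 lines (mean -0.64, SE 0.09, limma adjusted p = 0.0774). Pdgfra, the receptor for platelet-derived growth factor, had line changes of -0.70, -0.93 and -0.71 in 52205, 53369 and 53371 and of -0.77, -0.41 and -0.74 in 52419, 52424 and 53105, so that the sets overlap widely. Rab7b, a small GTPase gene of the endosomal route, had a difference of 0.00 with an interval of -0.65 to 0.66.

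Lepr, the leptin receptor gene, belongs to this group and also had a difference at an unadjusted p under 0.05. It was lower after Cre in all 6 lines, with means of -0.56 in the high-ratio lines and -1.05 in the others and a difference of 0.49 (SE 0.21; limma adjusted p = 0.999).

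The 10 higher genes of the same kind were Gclm, Cpne2, Krt19, Maoa, Tnfrsf21, Impa1, Pmf1, Magi3, Ftl1 and Mpc1-ps, again with none past the limma adjustment, while DESeq2 called all of them but Mpc1-ps. Gclm, the regulatory subunit of the enzyme that starts glutathione synthesis, was at 83.8 and 114 CPM in 52205, 72.6 and 94.2 in 53369, 51.4 and 78.6 in 53371, 52.8 and 70.0 in 52419, 70.4 and 102 in 52424, and 60.6 and 77.5 in 53105. Every Cre value was above its parental value, and the sets had means of 0.47 and 0.43. Their difference was 0.05 (95% interval -0.30 to 0.39). Gclm, Impa1, Pmf1 and Magi3 lie on chromosome 3, whose median change was 0.35 in 52205 and 0.21 in 53105; its part in their values was not tested. Ftl1, the ferritin light chain gene, was higher after Cre in 6 of 6 lines, with means of 0.59 and 0.25. Mpc1-ps is a pseudogene that can share reads with its parent gene, and its value is uncertain.

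In this group the line changes of Lepr, Krt19, Tnfrsf21 and Ftl1 were without overlap between the sets. Krt19, a ductal keratin gene, had changes of 0.74, 0.72 and 0.79 in 52205, 53369 and 53371 and of 0.35, -0.14 and 0.48 in 52419, 52424 and 53105. Tnfrsf21, which encodes death receptor 6, had changes of -0.03, 0.08 and 0.17 in the high-ratio lines and was also among the 10 genes with the smallest p for a lower change there (difference -0.56).

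**Figure D4:**
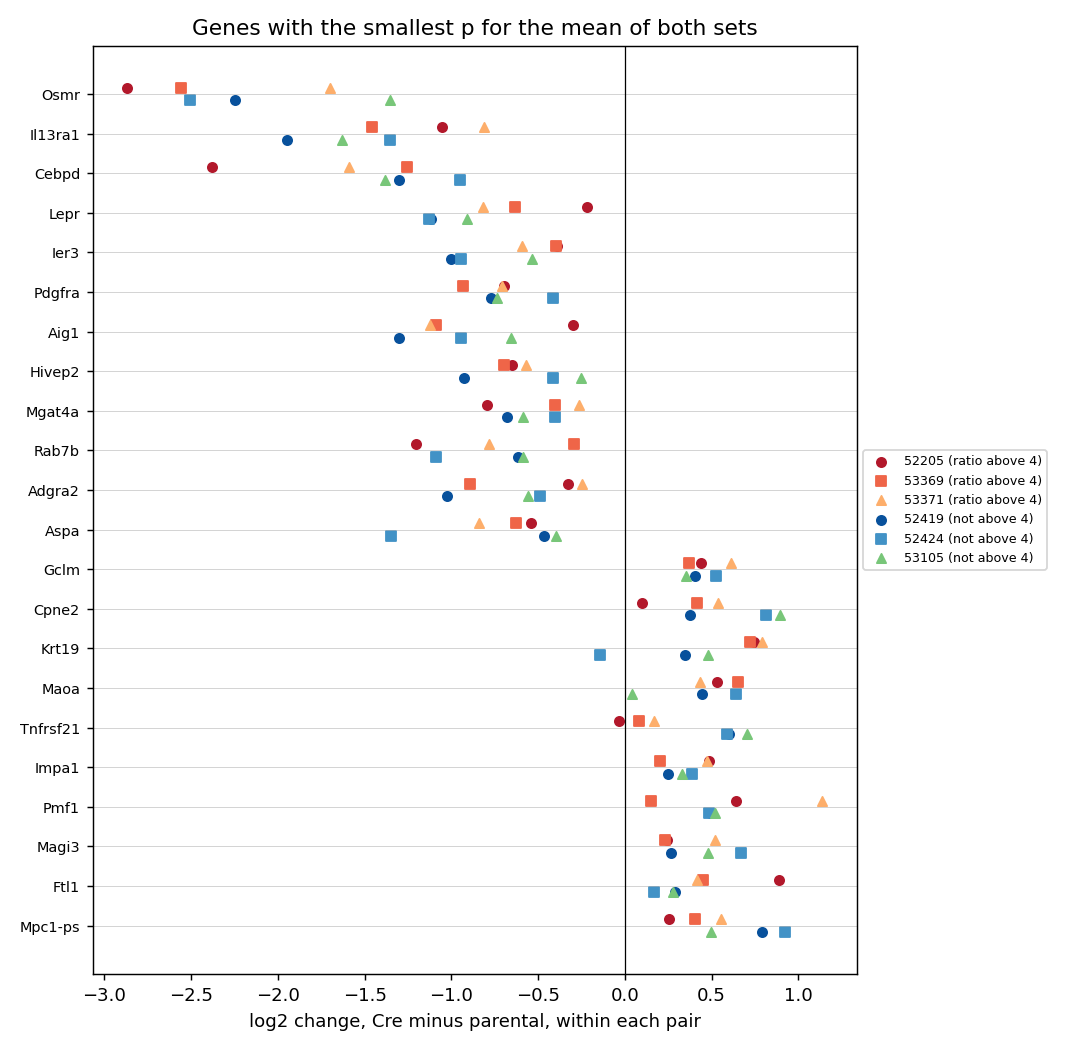
Log2 Cre change in each of the 6 lines for Osmr, Il13ra1, Cebpd and, below them, lower and then higher genes of smallest p for the mean change whose interval of the difference lies within 1 log2 unit; each point is 1 line. Osmr lies lowest, between -2.87 and -1.35, and the points of both sets mingle in most genes but lie apart for Lepr, Krt19, Tnfrsf21 and Ftl1.

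The gene that Cre was meant to remove gave no contrast between the sets. Jak1 mRNA was at 207 and 192 CPM in 52205, 165 and 145 in 53369, 170 and 179 in 53371, 125 and 104 in 52419, 183 and 234 in 52424, and 172 and 155 in 53105. The changes overlap between the sets, and the difference was -0.05 (95% interval -0.49 to 0.38). A count over the whole gene does not show whether a deleted part is missing, so it does not check the knockout label in either set.

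Among the JAK and STAT family, 10 of 11 genes were tested, 0 had a higher and 1 a lower difference at an unadjusted p under 0.05, and the median difference was -0.01 (-0.18 without 52419, 0.12 without 52424). The 1 gene was Stat5b, at 37.6 and 33.9 CPM in 52205, 36.3 and 33.6 in 53369, 32.7 and 31.6 in 53371, 7.06 and 11.7 in 52419, 39.9 and 56.1 in 52424, and 33.4 and 40.7 in 53105. Its Cre value was higher in the 3 other lines and slightly lower in the 3 high-ratio lines (difference -0.59, SE 0.19, limma adjusted p = 0.999). Its neighbour Stat5a had a difference of -0.39. Stat3, the main transcription factor downstream of interleukin-6 family receptors, was lower after Cre in 6 of 6 lines, with means of -0.58 and -0.52 (limma adjusted p = 0.20 for the mean of both).

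The receptor and target lists are described by counts and medians beside the values over all genes (median difference -0.01, 1.89% at an unadjusted p under 0.05). Of 16 tested genes of the list named JAK1-coupled receptors, 1 had a higher difference, Lepr, and 0 a lower one. Membership of the list does not show that a receptor, Lepr included, signals through JAK1. The list median was -0.32, but -0.10 without 52424 and -0.17 without 53105. Among the 16, Ifnlr1, a receptor chain for lambda interferons, had means of -0.55 in the high-ratio lines and 0.04 in the others. Of 15 tested STAT3 targets none differed at that level in either direction, the median difference was 0.06 (-0.12 without 52424, 0.14 without 52419), and the list medians were -0.35 and -0.43. The mean change of the STAT3 targets was below 0 in every line, from -0.96 in 52205 to -0.35 in 53369. Socs3, the feedback inhibitor of this route, was lower in 6 of 6 lines with means of -0.68 and -0.85 (limma adjusted p = 0.205 for the mean of both).

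For the interferon-stimulated genes, 1 line decided the direction of the difference. Of 22 tested, 1 had a higher difference, the antiviral membrane protein gene Ifitm3 (0.78, SE 0.28), and 0 a lower one. The list mean was -2.42 in 52419 and -1.16 in 53369, 1 line of each set, and lay between -0.43 and -0.12 in the remaining 4 lines. These 2 lines had the highest parental levels, with summed values of 1296 CPM in 52419 and 1046 CPM in 53369 against at most 478 CPM in the other parental libraries. The median difference was 0.43 with all lines and -0.23 without 52419.

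For cell-cycle genes, line 53371 decided the difference. The mean change of the 30 mitosis genes was 2.46 in 53371, 0.73 in 52424, 0.41 in 52205, 0.26 in 52419, 0.12 in 53369 and -0.10 in 53105. Their summed level in 53371 was 795 CPM before and 4098 CPM after Cre, the parental value being the lowest of the 12 libraries. The median difference was 0.73 with all lines and -0.0035 without 53371. Cdk1, the kinase that drives entry into mitosis, was the 1 of 30 with a higher difference at an unadjusted p under 0.05 (0 lower). The 30 genes of the G1/S transition and replication had 0 such genes in either direction and a median difference of 0.37, which was -0.14 without 53371.

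Of 31 tested genes of the hypoxia and glycolysis list, 5 had a higher difference at an unadjusted p under 0.05, against 0.801% of all genes, and 0 a lower one. These 5 were Gapdh, Pgk1, Pgam1, Eno1 and Ldha, which encode glycolytic enzymes; they do not form a list of their own, and Gapdh and Eno1 were named after their values were seen. Pgk1, which makes ATP from 1,3-bisphosphoglycerate, was at 205 and 287 CPM in 52205, 111 and 135 in 53369, 198 and 216 in 53371, 276 and 253 in 52419, 345 and 207 in 52424, and 114 and 81.2 in 53105. The Cre value was the higher one in the 3 high-ratio lines and the lower one in the 3 others, with a difference of 0.75 (SE 0.19). Pgk1 lies on chromosome X, whose median change was -0.26 in 53105. Ldha, which turns pyruvate into lactate, had changes of 0.59, 0.15 and 0.38 in 52205, 53369 and 53371 and of -0.06, -0.17 and -0.15 in 52419, 52424 and 53105. Its difference was 0.50. Gapdh, Pgam1 and Eno1 differed by 0.36, 0.36 and 0.38, without overlap of line changes. The list median was 0.32 and stayed between 0.21 and 0.39 when any 1 line was left out. Several of these enzymes have near-identical copies in the genome that can share reads, and none of the 5 passed the adjustment (limma, adjusted p = 0.999).

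**Figure D5:**
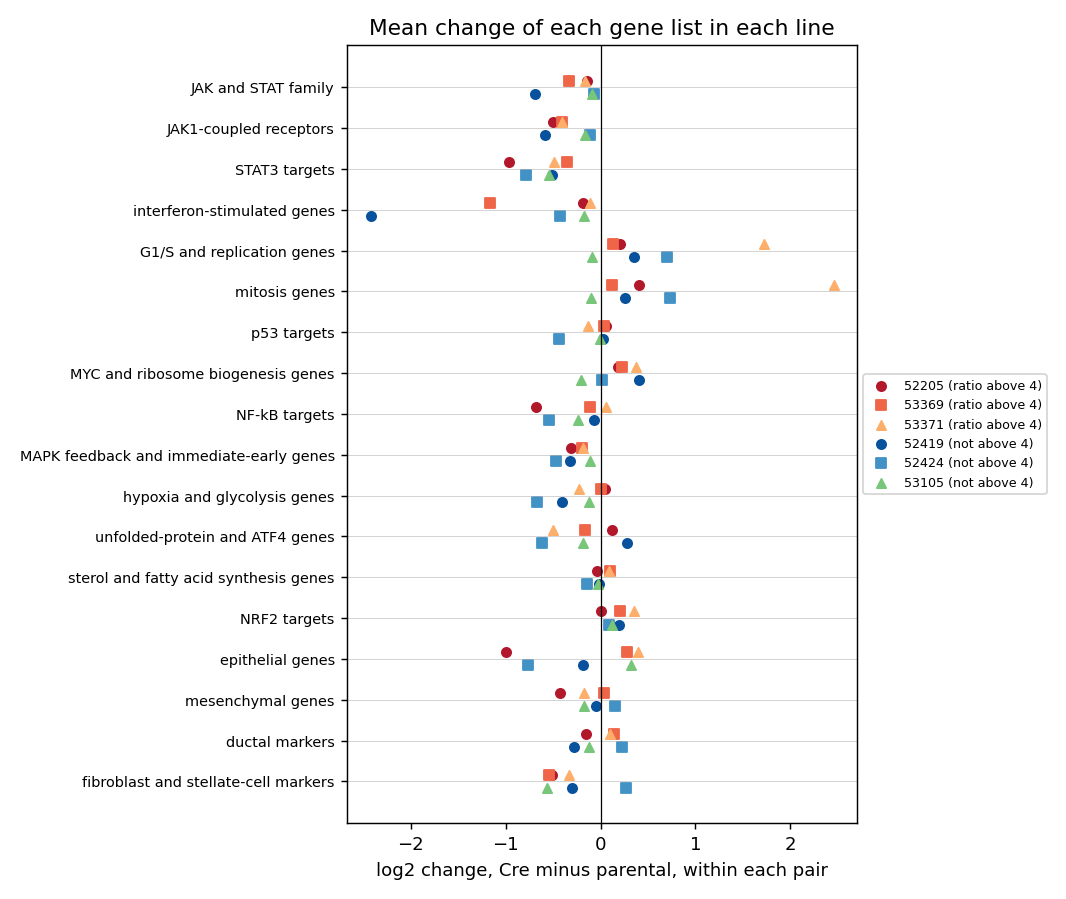
Mean log2 Cre change of the tested genes of 18 gene lists in each of the 6 lines; each point is 1 line, warm colours the high-ratio lines and cool colours the others. Line 53371 stands apart for mitosis genes at 2.46 and line 52419 for interferon-stimulated genes at -2.42, and the lines of the sets overlap in most lists.

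Of 21 tested targets of the antioxidant factor NRF2, 0 had a higher and 2 a lower difference, the glutathione transferase genes Gsta4 (-0.75) and Gstm1 (-0.81). The list median was 0.11, and between 0.02 and 0.21 with any 1 line left out. Of 28 genes of MYC function and ribosome biogenesis, 1 was higher, the polyamine enzyme gene Odc1 (0.38), and 0 lower. The lists of p53 targets (23 tested), NF-kB targets (20), MAPK feedback genes (24), unfolded-protein genes (28) and sterol synthesis genes (28) had 0 in either direction, with median differences of 0.11, 0.02, 0.05, 0.04 and 0.09. With 1 line left out these medians lay between -0.21 and 0.25, and those of the NF-kB, MAPK and unfolded-protein lists changed sign.

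Epithelial and mesenchymal levels varied within both sets. Of 22 tested epithelial genes 2 had a higher difference (Krt7 and Krt19) and 0 a lower one. The lines differ widely in epithelial level, but 1 line with a low level sits in each set: summed parental values were 284 CPM in 52419 and 1698 CPM in 53369, and at least 4445 CPM in the other 4 lines. The list median was 0.13, and from -0.15 (without 52424) to 0.59 (without 52205) with 1 line left out. Of 26 mesenchymal genes 0 were higher and 1 lower, Snai2, which encodes a repressor of epithelial genes (-0.78), with a median of -0.12 (-0.0066 without 52424, -0.23 without 53369). The 15 ductal markers, 13 of them tested, had a summed level of 4050 to 24480 CPM in every library. Such a sum can rest on few members and does not check the labelled ductal origin. In parental 52419 it was 8619 CPM, although the epithelial list, which shares Krt7, Krt19 and Muc1 with it, summed to 284 CPM. The median difference of the ductal markers was -0.17, but 0.01 without 52424, -0.33 without 52419 and 0.03 with library weights.

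Markers of other cells were low or unevenly spread. Acinar markers summed to at most 20.3 CPM, endocrine markers to at most 15.5 CPM and leukocyte markers to at most 26.7 CPM in any library, with 1, 0 and 1 genes passing the filter on low values. Endothelial markers summed to 22.7 to 299 CPM, with 2 of 10 tested. Fibroblast and stellate-cell markers ranged from 30.7 to 1385 CPM, and of 5 tested 1 had a higher difference (Ly6c1) and 0 a lower one. The part of these levels in the differences between the sets was not tested.

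Before Cre, the sets also gave no called difference. In the 6 parental libraries 0 of 12906 genes passed (0%, limma-trend, Benjamini-Hochberg adjustment) and 248 had an unadjusted p under 0.05 (1.92%); edgeR called 0 and DESeq2 called 17. The 5 genes with the smallest p for a higher parental level in the high-ratio lines were Mmp23, Slc7a3, Zfpm2, 1810037I17Rik and Grik5. Zfpm2, which encodes a cofactor of GATA factors, was at 59.4, 66.5 and 59.9 CPM in 52205, 53369 and 53371 against 21.3, 23.5 and 27.3 CPM in 52419, 52424 and 53105. Slc7a3, a transporter of cationic amino acids, was at 48.1, 80.2 and 74.1 CPM against 1.78, 6.54 and 6.88 CPM in the same order. Both are without overlap, which a choice by p favours, with log2 differences of 1.35 (SE 0.20) and 3.76 (SE 0.52). Both are among the 17 genes that DESeq2 called.

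In the opposite direction the 5 genes were Mbnl3, Fst, Eomes, Ndufs5 and Trim24. Fst, the gene of follistatin, which binds activin, was at 16.7, 15.5 and 18.6 CPM in 52205, 53369 and 53371 against 87.9, 396 and 64.8 CPM in 52419, 52424 and 53105. Its parental difference was -2.92 (SE 0.66), whereas its Cre change had means of -0.42 and -0.43, which alone do not meet the definition of alike used above. Mbnl3, an RNA-splicing regulator gene, was at 8.56, 8.03 and 4.88 CPM against 34.6, 22.2 and 36.1 CPM, also without overlap, which the choice by p favours. DESeq2 called the parental difference of Fst and of Mbnl3.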

How the data were processed

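Read counts per gene had been made with featureCounts and scaled with edgeR, with FastQC 0.11.9 and the builds GRCm38 and mm10, per the submitters' processing notes; the sources used here do not name the aligner. The authors deposited a linear signal per gene (20432 genes, reads per scaled library size, called CPM) and a log2 table (10903 genes, used as an alternative). All signal values were whole multiples of 1 read (tolerance 0.01), so read counts were recovered from the deposited signal, 11.5 to 18.0 M per library. Recomputed trimmed-mean scaling matched the deposited one to within 6.21e-09.

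Genes at 1 CPM or more in at least 6 libraries (3 for the parental test) were kept, 12734 in all. Values were fitted as log2(value + 0.5) with limma-trend (limma 3.58.1, R 4.3.3), with a term per cell line and a Cre term per set, leaving 4 residual degrees of freedom; p-values are 2-sided and adjusted by Benjamini-Hochberg over all genes tested. An exact permutation test of 3 against 3 lines cannot go below p = 0.1. Same-line libraries come from the same cell line, so the block belongs to the fit; own-line correlations of deviations were 0.73 to 0.95, and 12 of 12 libraries correlated best with their own line.

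The sets, genes and lists were chosen with earlier results of these data known. Named genes were the locus and its neighbours, the 10 genes in each direction with the smallest p for the difference and for an alike mean change, the JAK and STAT genes with Osmr, Il13ra1, Cebpd and Socs3, the 3 members of each list with the smallest p, and 5 genes in each direction for the parental difference. Symbols are from RefSeq (19448 genes), and 984 genes had none. The fit was also run on simulated data with planted changes of equal size in all high-ratio lines. Real Cre changes vary between lines, so that run does not check the fit for them and no result here rests on it. Alternatives changed the pseudocount, the filter, the scaling or the block, used the log2 table or library weights, left out each line in turn, or tested recovered reads with DESeq2 1.42.0 or edgeR 4.0.16 (quasi-likelihood). A few genes are counted but neither named nor plotted, and their results are not reported here. Figures were drawn with matplotlib.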

Additional observations from a re-analysis of the deposited data

Results flagged for a closer look

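Of 114 sets of 6 line changes 10 had 1 line whose gap to the rest, divided by the whole range, was above Dixon's 95% critical value for 6 values. A chance rate of about 1 in 20 holds only for independent sets chosen without regard to their values. Here many genes were picked by p and some list means contain the same genes, so the count cannot be set against that rate. In line 53371 the mitosis list mean was 2.46 (the other lines -0.10 to 0.73), the cyclin gene Ccnb1 2.53 (0.07 to 0.69) and the spindle midzone gene Prc1 1.88 (-0.26 to 0.37), while Dnajb9, a chaperone gene of the endoplasmic reticulum, stood at -0.80 (-0.10 to 0.26). In line 52419 the interferon-inducible GTPase gene Igtp was at -3.43 (-1.01 to 0.29) and the kinase gene Tyk2 at -0.57 (0.01 to 0.16). In line 52424 the macrophage marker Cd68 was at -1.93 (-0.26 to 0.18), the collagen gene Col3a1 at 2.15 (-1.36 to -0.56) and the fibroblast and stellate-cell list mean at 0.27 (-0.57 to -0.30). Maoa, the monoamine oxidase A gene, was at 0.044 in 53105 (0.43 to 0.65). It lies on chromosome X, whose median change was -0.26 in 53105, and the part of that shift was not tested. Of these 10 values 4 lie in a high-ratio line and 6 in another line.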

How the results depend on the processing

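The count of genes whose Cre change differed between the sets was 0 in the reported fit and in all alternatives run. The 240 genes at an unadjusted p under 0.05 became 532 with no filter on low values, 414 with library weights and 2 with no replicate block, and 171 to 494 with 1 line left out. The 3 genes called for the mean change became 2 (without Osmr) with a pseudocount of 0.1 and with the deposited log2 table, 0 with no filter, 14 with library weights, 0 with edgeR, 170 with DESeq2, 0 without the replicate block (the unpaired fit) and 0 to 2 with 1 line left out. For the high-ratio lines alone the count of 0 became 5 with library weights and 34 with DESeq2, and for the other lines 27 with DESeq2. The count of alike genes became 2 with a pseudocount of 2, 8 with library weights and 0 to 1 with 1 line left out, and the parental count became 17 with DESeq2; the causes were not tested. The alike count could not be computed with edgeR or DESeq2, which give no interval here, and the parental fit has no block.

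Of 117 gene results, only the mean changes of Osmr, Il13ra1 and Cebpd passed the adjusted threshold in the reported fit, so only these 3 could lose a call. Under alternatives the 117 gave 1959 values. Of these, 1888 kept direction and side of the threshold, most of them uncalled in both fits. A further 33 passed it newly, 26 no longer passed (all of the 3 called results) and 12 changed sign, all 12 with 1 line left out. For the difference the genes that changed sign were Vegfa (-0.12 to 0.66), Rrm2 (-0.043 to 1.34), Cela1 (-0.37 to 0.094), Flt1 (-0.48 to 0.064) and Col3a1 (-1.34 to 0.42). For the mean change they were Jak1 (-0.136 to 0.0156, above 0 without 52419), Tyk2 (-0.125 to 0.0574, likewise) and Stat6 (-0.0402 to 0.0157, above 0 without 53105 and without 53371). Depth limits genes of few reads, such as Osmr and Ptgds.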

Other observations

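The median Cre change of the tested genes differed from 0 on some chromosomes in single lines. In 52205 the median over the tested genes of chromosome 3 was 0.35, of chromosome 16 -0.30 and of chromosome 5 -0.22. In 53105 chromosome X had -0.26 and chromosome 3 had 0.21, and in 53371 chromosome 7 had -0.20. Chromosome 6, which holds the Rosa26 locus, had a median difference between the sets of 0.015. The lowest such median was -0.11 on chromosome 8 and the highest 0.091 on chromosome 1.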
